A study of Mus musculus with 4 samples.

Results

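The genes described are 40 cell cycle and proliferation genes, taken by symbol from the array annotation: the helicase, nucleotide and polymerase-clamp genes of DNA replication, the cyclins and their kinases, kinase inhibitors, and the kinases, motors and checkpoint proteins of mitosis. Of the 40, 39 had at least 1 probe set, 99 probe sets in all of 45037 on the array, and 38 had a probe set bright enough to test, of 11577 genes tested in all. Ccnb1, a mitotic cyclin, was not analysed here because no probe set carried its symbol alone. Birc5, a subunit of the chromosomal passenger complex, had 1 probe set, at 39.1 and 45.6 in hypomorph and 55.3 and 45.4 in wildtype, below the brightness limit. The samples were Paneth cells, the antimicrobial secretory cells of the small intestinal crypt base, cut by laser capture from wildtype mice and from mice hypomorphic for Atg16, whose product is needed to form autophagosomes. Each group had 2 arrays, and both were of a mixed C57BL/6 and 129ola background. The labels used here do not name the hypomorphic allele, the age or sex of the mice, or how many animals and captured cells went into an array.

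A dividing cell loads the Mcm helicase onto DNA in the gap phase, fires it at the start of DNA synthesis under cyclin E and cyclin A kinases, and enters mitosis under cyclin B and Cdk1. Mitotic genes are then transcribed late, and their products are destroyed by the anaphase-promoting complex. In the crypt, the dividing cells are the stem cells that sit between Paneth cells and the transit-amplifying cells above them, while mature Paneth cells have left the cycle.

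Values are deposited linear intensities, and differences are hypomorph minus wildtype on the scale log2(intensity + 32), which understates the change of dim genes. For each gene the brightest tested probe set stood for it, and the gene was called when its adjusted p in limma, over all 22519 probe sets tested, was under 0.05. Intensities of different probe sets cannot be set against each other, so every comparison is within a probe set. The labels do not tie arrays to animals, so the spread behind every p-value is that of these samples alone and may be technical, p-values are too small if arrays share an animal, and precision is limited by having 2 arrays a group. Captured tissue is a mixture, and fewer cells of a type cannot be told apart from less RNA per cell. Median intensities of the arrays lay between 47.2 and 49.5. Atg16l1 read 966 and 995 in hypomorph and 1335 and 1183 in wildtype (log2 difference -0.35, limma adjusted p = 0.102), and the labels do not place this probe set relative to the allele. Xist, which is transcribed from the inactive X chromosome of female cells, read 4414 and 4510 in hypomorph and 18.0 and 25.6 in wildtype, so sex and genotype cannot be told apart.

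The comparison of hypomorph with wildtype asked which genes change in Paneth cells with reduced Atg16l1 function, and here whether cell cycle genes do. Of the 38 member genes tested, limma called 1 lower in hypomorph, the mitotic motor gene Kif11, and 0 higher. Over all genes tested 1.70% were called lower and 2.53% higher, so the 2.63% of members called lower is near that background. At an unadjusted p under 0.05 there were 10 members, 7 lower and 3 higher, or 26.3% of members against 21.7% of all genes. The median difference over members was -0.08, beside -0.02 over all genes tested. On the scale of these differences, the 95% interval lay within 1.5-fold in either direction for 31 of 38 members. It lay within 2-fold for all 38, and the matching shares of all genes were 71.3% and 96.1%. That scale understates the change of dim genes, so neither limit bounds the fold change of intensity in dim members. By role, 4 of 10 replication genes and 14 of 15 mitosis genes had a difference below 0, beside 55.2% of all genes tested. The difference between these role groups was not tested. It depended on the probe set: without x_at and s_at probe sets, names that mark probes which can match more than 1 transcript, 7 of 10 replication genes and 12 of 14 mitosis genes were below 0, and with the mean of a gene's probe sets 6 of 9 and 12 of 15.

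**Figure D1:**
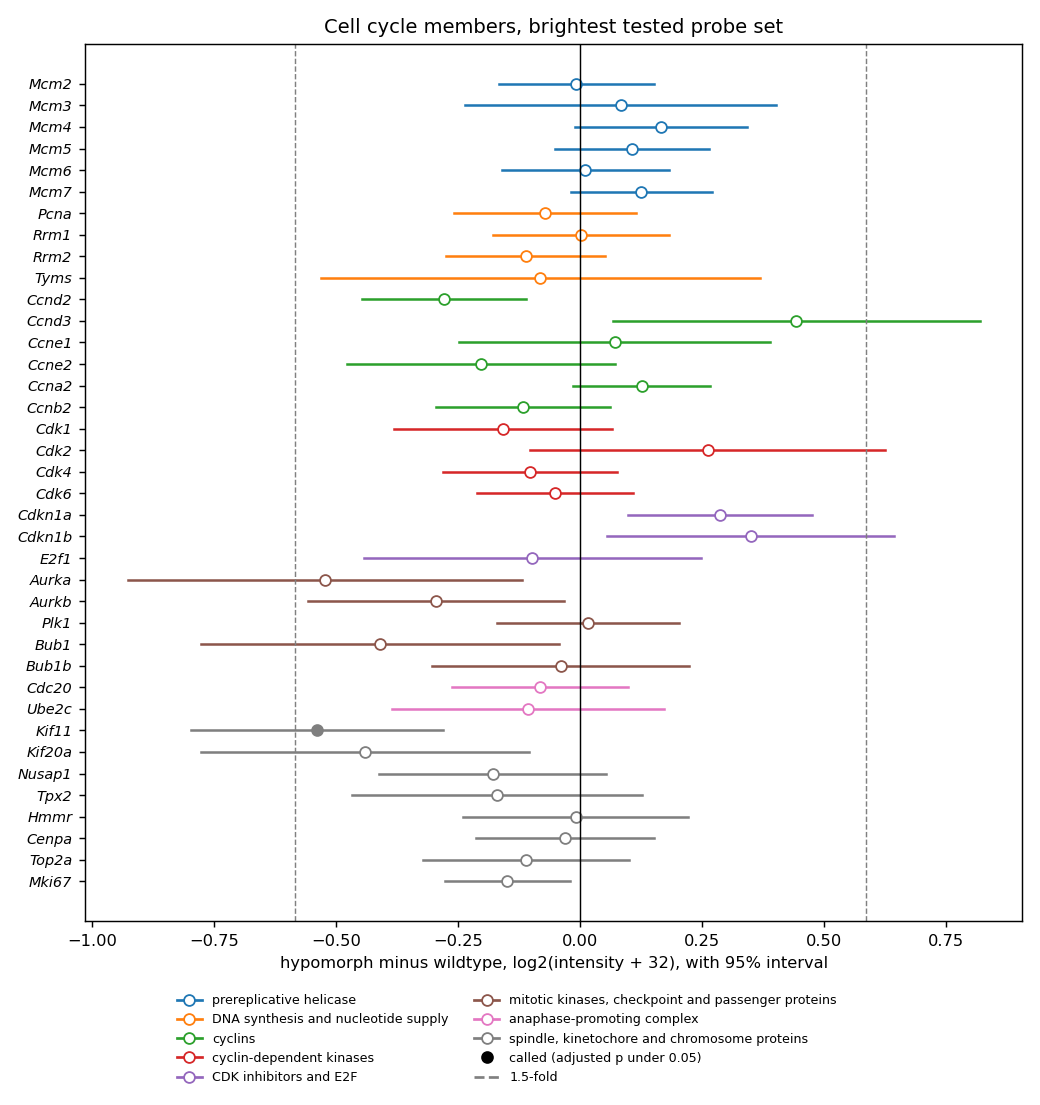
Differences between hypomorph and wildtype on the log2(intensity + 32) scale for the 38 tested member genes, ordered and coloured by role; bars are 95% intervals from limma, the filled point is the called gene, and dashed lines mark 1.5-fold. Kif11 is the 1 filled point at -0.54, the Mcm genes lie between -0.01 and 0.17, and Cdkn1a and Cdkn1b lie to the right at 0.29 and 0.35.

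Replication genes were expressed on all 4 arrays, and none of the 10 tested was called. The 6 Mcm genes, which encode the ring of the replicative helicase, had differences from -0.01 for Mcm2 to 0.17 for Mcm4, with a median of 0.09. Mcm2 read 2973 and 3062 in hypomorph and 3037 and 3031 in wildtype, and its 95% interval ran from -0.17 to 0.15. Its groups overlapped, as did those of Mcm3 and Mcm6. Mcm4 read 4135 and 3818 against 3350 and 3740, Mcm5 read 3472 and 3298 against 3142 and 3141, and Mcm7 read 4178 and 4316 against 3861 and 3919. In these 3 genes both hypomorph arrays were above both wildtype arrays, as in 23.4% of all genes tested, and none passed the test (limma adjusted p = 0.271, 0.428 and 0.309). All 6 Mcm genes were represented by x_at or s_at probe sets, and some other probe sets of these genes differed from them, as described with the probe sets.

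By their brightest probe sets, the genes of the replication clamp and of nucleotide supply also lay close to 0. Pcna, the sliding clamp of DNA polymerases, read 2690 and 3070 in hypomorph and 3075 and 2973 in wildtype (difference -0.07, 95% interval -0.26 to 0.11). Rrm1, the large subunit of ribonucleotide reductase, read 2751 and 2948 against 2975 and 2718 (0.00, interval -0.18 to 0.18). Rrm2, the small subunit that rises at the start of DNA synthesis, read 2596 and 2656 against 2827 and 2853, lower on both hypomorph arrays. It did not pass the test (-0.11, limma adjusted p = 0.423). A dimmer probe set of Rrm2 was called lower (-1.004), as described with the probe sets. Tyms, which makes thymidylate, read 135 and 135 against 113 and 183, so the wildtype arrays enclosed the hypomorph values. Its difference was -0.08, with a wide interval of -0.53 to 0.37. A further probe set that lists Tyms together with a pseudogene was not used. The median over the 10 replication genes was 0.01.

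Cyclins went in both directions and none of the 6 tested was called. Ccnd2, a D-type cyclin of the gap phase, read 5848 and 6583 in hypomorph and 7121 and 7967 in wildtype, a difference of -0.28 (SE 0.07, limma adjusted p = 0.0736). Its relative Ccnd3 read 219 and 272 against 188 and 157, a difference of 0.44 (SE 0.17, adjusted p = 0.177 in limma), but a second probe set of Ccnd3 gave -0.26. The groups did not overlap for either gene. Among the cyclins of DNA synthesis, Ccne1 read 1012 and 787 against 928 and 775 and overlapped, Ccne2 read 591 and 555 against 707 and 625 (-0.20), and Ccna2 read 7502 and 6836 against 6698 and 6423 (0.13). The mitotic cyclin Ccnb2 read 3084 and 3449 against 3427 and 3655 (-0.12) and its groups overlapped.

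Of the 4 cyclin-dependent kinases 0 were called, and 0 had an unadjusted p under 0.05 in limma. Cdk1, the kinase of mitotic entry, read 1223 and 1375 in hypomorph and 1413 and 1488 in wildtype (-0.16, 95% interval -0.38 to 0.06). Cdk2, the partner of cyclins E and A, read 173 and 213 against 154 and 156 (0.26, interval -0.10 to 0.62). Cdk4 and Cdk6, the partners of D-type cyclins, had differences of -0.10 and -0.05, and each had another tested probe set within 0.10 of its value. Cdk1 and Cdk6 were lower on both hypomorph arrays, Cdk2 was higher on both, and Cdk4 overlapped.

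The inhibitors of these kinases among the members, Cdkn1a and Cdkn1b, were higher on both hypomorph arrays, as in 23.4% of all genes tested. Neither was called. Cdkn1a, the p53-inducible inhibitor p21, read 2107 and 2175 in hypomorph and 1697 and 1803 in wildtype, a difference of 0.29 (SE 0.08, limma adjusted p = 0.0958). A dimmer probe set of Cdkn1a gave 0.31, with 181 and 110 against 111 and 106. Cdkn1b, the inhibitor p27 of resting cells, read 962 and 878 against 637 and 802, a difference of 0.35 (SE 0.13, limma adjusted p = 0.175). With its probe sets averaged, the difference of Cdkn1b was 0.17. E2f1, a transcription factor of replication genes, read 165 and 178 against 194 and 178, with overlapping groups, and a second probe set gave 0.08 against -0.10 for the brighter.

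Mitosis genes had most of the lower values. Of the 15 tested in the 3 mitotic role groups, 14 had a difference below 0 (93.3%, beside 55.2% of all genes tested). Of the 15, 1 was called lower (6.67%, beside 1.70% of all genes tested). In 10 both hypomorph arrays lay below both wildtype arrays, beside 30.0% of all genes tested. In 0 of the 15 did both lie above, beside 23.4% of all genes. Their median difference was -0.15, and 6 of the 15 had an unadjusted p under 0.05 in limma (40.0%, beside 21.7% of all genes). Kif11, the plus-end motor that pushes the spindle poles apart, fell from 908 and 902 on the wildtype arrays to 577 and 651 on the hypomorph arrays, a difference of -0.54 (SE 0.12, 95% interval -0.80 to -0.28, limma adjusted p = 0.0349). The call was kept without hypomorph replicate 2 (adjusted p = 0.0224) and lost when hypomorph replicate 1 (0.118) or either wildtype replicate (0.126 and 0.118) was left out, with differences of -0.46 to -0.62. The other tested probe sets of Kif11 gave -0.21 and -0.08, and neither was called. With no brightness filter (limma adjusted p = 0.0994) or without the intensity trend (0.0948) the Kif11 call was also lost. With its probe sets averaged, Kif11 was not called.

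The bases just before the start of Kif11 are shown with those of 3 other members, the mitotic entry genes Cdk1 and Ccnb2 and the replication gene Rrm2, since late cell cycle genes are known to be read through a CCAAT box and a CHR element, the site of the MuvB complexes, and replication genes through E2F sites. The sequences are the 250 bases before the start from RefSeq (build GRCm38.p6), 5′ to 3′ on the strand of the gene, and capitals mark matches to CCAAT, to the CHR letters TTTGAA or to an E2F site, on either strand. The E2F site was searched in 4 spellings, of which the first was TTCCCGC, the next was TTCGCGC, then came TTGCCGC, and the last was TTGGCGC.
Kif11 (chr19:37376132-37376381, plus strand): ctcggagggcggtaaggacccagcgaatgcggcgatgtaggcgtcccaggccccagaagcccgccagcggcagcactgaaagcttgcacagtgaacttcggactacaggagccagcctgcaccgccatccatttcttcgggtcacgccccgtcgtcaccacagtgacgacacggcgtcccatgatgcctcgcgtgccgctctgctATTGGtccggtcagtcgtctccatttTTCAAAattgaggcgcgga
Cdk1 (chr10:69352913-69353162, minus strand): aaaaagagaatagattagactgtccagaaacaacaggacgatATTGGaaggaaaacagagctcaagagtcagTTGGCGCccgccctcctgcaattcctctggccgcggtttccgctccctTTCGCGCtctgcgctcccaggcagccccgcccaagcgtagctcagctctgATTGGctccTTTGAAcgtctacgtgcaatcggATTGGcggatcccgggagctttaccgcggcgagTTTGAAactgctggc
Ccnb2 (chr9:70421555-70421804, minus strand): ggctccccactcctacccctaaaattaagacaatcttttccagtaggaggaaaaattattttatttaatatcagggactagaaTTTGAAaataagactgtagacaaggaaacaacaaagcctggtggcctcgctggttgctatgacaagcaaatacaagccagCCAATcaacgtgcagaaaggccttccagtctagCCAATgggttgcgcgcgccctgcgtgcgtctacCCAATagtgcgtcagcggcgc
Rrm2 (chr12:24708004-24708253, plus strand): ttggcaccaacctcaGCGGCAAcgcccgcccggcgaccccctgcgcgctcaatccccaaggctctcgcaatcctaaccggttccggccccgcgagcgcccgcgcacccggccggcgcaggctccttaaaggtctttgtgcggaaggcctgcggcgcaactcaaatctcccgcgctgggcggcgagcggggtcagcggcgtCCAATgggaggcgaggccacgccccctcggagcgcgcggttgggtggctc
Kif11 held 1 CCAAT match and 1 CHR match, Cdk1 held 3 and 2 with 2 E2F matches, Ccnb2 held 3 and 1, and Rrm2 held 1 CCAAT match and 1 E2F match but no CHR match. Of the mitosis members 13 had a window, of which 5 held both CCAAT and CHR letters (38.5%). This held for 1 of the 10 windows of replication members (10.0%) and for 5.55% of all 32851 windows of this length. CCAAT letters were in 11 of the 13 windows of mitosis members (84.6%), in 9 of the 10 of replication members (90.0%) and in 33.8% of all windows. E2F letters were in 6 of the 10 windows of replication members (60.0%), in 2 of the 13 of mitosis members (15.4%) and in 7.89% of all windows. The 10 windows of replication members came from 9 genes. These are matches of letters, and no binding was measured.

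The other mitosis members with an unadjusted p under 0.05 in limma were each lower on both hypomorph arrays, a separation that choosing by p on these arrays favours. Kif20a, the motor of the central spindle, read 188 and 214 against 274 and 293, with a difference of -0.44 (SE 0.15, adjusted p = 0.140). Aurka, the kinase of spindle poles, read 54.7 and 75.7 against 97.6 and 117, with a difference of -0.52 (SE 0.18, adjusted p = 0.145), and its other probe set gave -0.67. Aurkb, the kinase of the passenger complex, read 618 and 687 against 775 and 839, with a difference of -0.30 (SE 0.12, adjusted p = 0.196), and its other probe set gave -0.27. Bub1, a spindle checkpoint kinase, read 354 and 497 against 536 and 601, with a difference of -0.41 (SE 0.16, adjusted p = 0.197), and its other probe set gave -0.20. For Aurka, Aurkb and Bub1, then, every tested probe set had the same sign, but over all members with more than 1 tested probe set 10 of 25 had probe sets of opposite sign. Mki67, the Ki-67 antigen that coats mitotic chromosomes and marks cycling cells, read 5241 and 5273 against 5803 and 5865, with a difference of -0.15 (SE 0.06, adjusted p = 0.181).

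**Figure D2:**
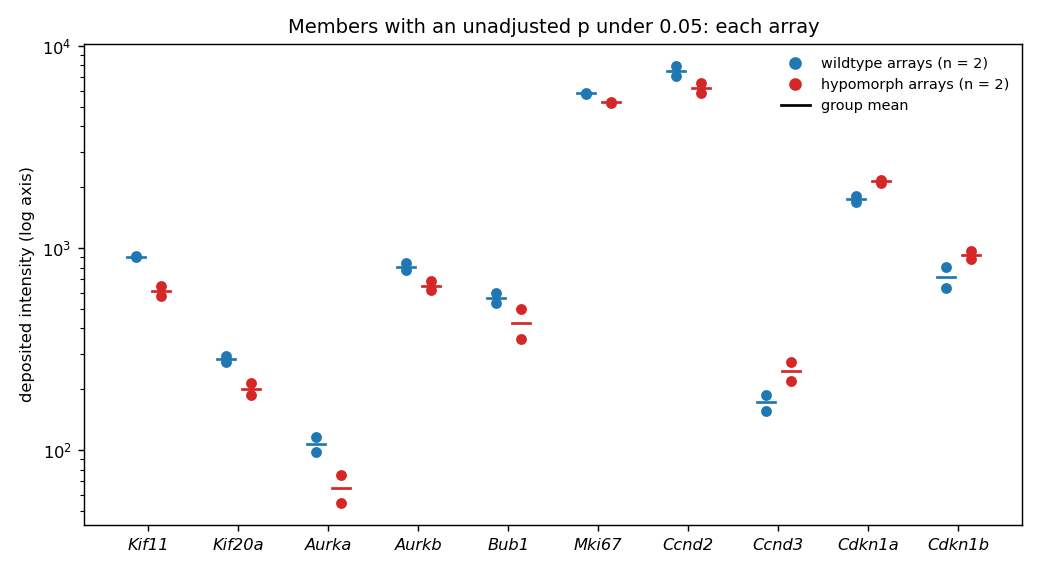
Deposited intensity on a log axis for the 10 members with an unadjusted p under 0.05, with 1 point per array (n = 2 arrays per group) and a line at each group mean. In all 10 genes the red hypomorph points lie apart from the blue wildtype points, below them for 7 genes such as Kif11 (577 and 651 against 908 and 902) and above them for Ccnd3, Cdkn1a and Cdkn1b. The genes were chosen by p on these same arrays, a choice that favours such separation.

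The remaining mitosis genes lay nearer to 0. Plk1, a kinase that acts throughout mitosis, read 2344 and 2136 in hypomorph and 2226 and 2199 in wildtype and was the 1 mitosis member above 0 (0.02, 95% interval -0.17 to 0.20). Across the alternatives in which 15 mitosis genes were tested, 12 to 14 were below 0, with 12 when wildtype replicate 1 was left out or when the probe sets of a gene were averaged. Cdc20, the activator of the anaphase-promoting complex, read 4365 and 5132 against 4910 and 5117, and its partner Ube2c, the ubiquitin-conjugating enzyme, read 483 and 495 against 506 and 553. Top2a, which untangles sister chromatids, read 1237 and 1277 against 1327 and 1392 (-0.11, limma adjusted p = 0.547). Nusap1 and Tpx2, which bundle and nucleate spindle microtubules, had differences of -0.18 and -0.17 with hypomorph arrays below wildtype arrays. Other probe sets of Tpx2 went the other way, 1447518_at at 0.15 and 1447519_x_at at 0.30. Cenpa, the histone of centromeres, and Hmmr, a spindle-associated protein, were at -0.03 and -0.01 with overlapping groups, and 1444416_at of Cenpa gave 0.55 (limma adjusted p = 0.255), while the other tested probe sets of Hmmr gave -0.48, -0.43 and -0.06.

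Every tested probe set of the members was also counted, and not the brightest alone. Of these 82, 5 were called lower (6.10%) and 0 higher. Over all probe sets tested the shares were 1.67% and 2.04% (3.71% in either direction). At an unadjusted p under 0.05 in limma there were 17 lower and 4 higher (25.6% of the 82). Over all 22519 probe sets there were 2592 lower and 2033 higher (20.5%). The hypomorph arrays lay below the wildtype arrays in 36 of the 82, and above them in 10, beside 29.9% and 21.8% of all probe sets. Probe sets of a gene share their target, so these are not independent. The 5 belong to Kif11, Bub1b, Rrm2, Mcm7 and Ccnd2, and in 4 of these genes the brightest probe set was not called.

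Bub1b, the checkpoint protein BubR1, had the largest disagreement. Probe set 1447362_at read 20.1 and 26.0 in hypomorph and 157 and 183 in wildtype, a difference of -1.88 (SE 0.17, limma adjusted p = 0.000251) that was called without each array in turn. The brighter 1447363_s_at read 646 and 631 against 689 and 627 (-0.04) and 1416961_at read 283 and 260 against 282 and 252 (0.02), and both overlapped between groups. Bub1b and Nusap1 lie between Slc5a12 and AA467197 on chromosome 2, in the gene order of RefSeq, a stretch chosen with results of these data known. In that stretch 19 of 86 tested genes were called (22.1%), against 4.23% of all genes tested, and its part in the Bub1b value was not tested.

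Rrm2 and Mcm7 showed the same kind of split at low brightness. Probe set 1448226_at of Rrm2 read 57.6 and 69.3 against 182 and 139 and was called lower (-1.004, SE 0.18, limma adjusted p = 0.0150), while 1416120_at gave -0.23 and the brightest, 1434437_x_at, gave -0.11. The Rrm2 call at 1448226_at was lost without wildtype replicate 1 (adjusted p = 0.105). Probe set 1416030_a_at of Mcm7 read 51.9 and 72.2 against 116 and 141 (-0.77, SE 0.18, limma adjusted p = 0.0491), and the other probe sets gave -0.11, -0.05 and 0.13. Its call was lost without each array other than hypomorph replicate 2. Of the 7 tested probe sets of Ccnd2, 6 were below 0, and 1455956_x_at, at 4574 and 4568 against 5409 and 5574, was the 1 called (-0.26, SE 0.06, limma adjusted p = 0.0439), also lost without each array other than hypomorph replicate 2. Over the 25 members with more than 1 tested probe set the median spread between probe sets was 0.21, beside 0.22 over 4637 genes, and it exceeded 0.5 in 6 of these members and in 696 of those genes.

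**Figure D3:**
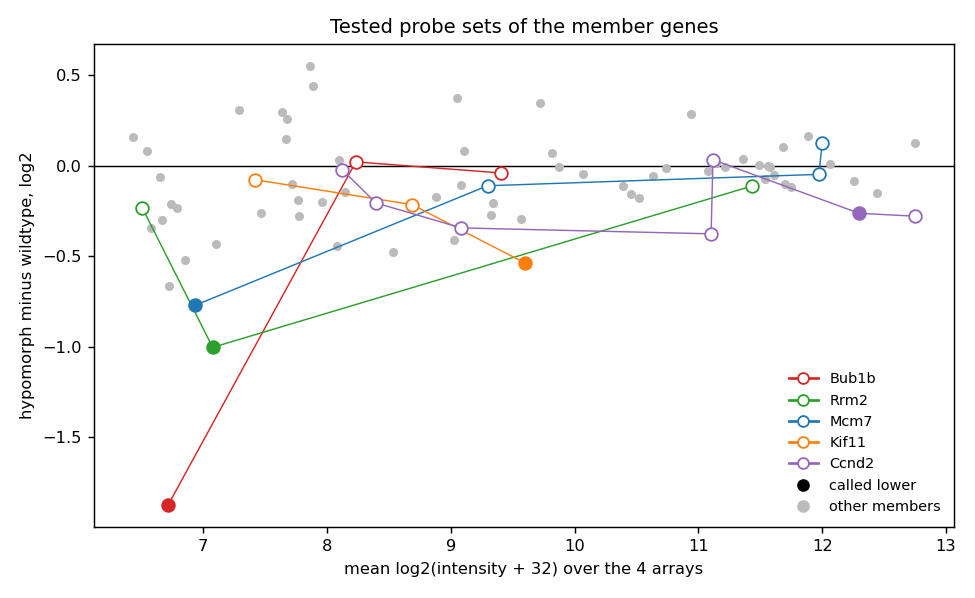
Difference between hypomorph and wildtype (log2) against the mean log2(intensity + 32) over the 4 arrays for the 82 tested probe sets of the members; for 5 genes, coloured lines join the probe sets of a gene, grey points are other members, and filled coloured points were called lower. The called probe sets of Bub1b (-1.88), Rrm2 (-1.004) and Mcm7 (-0.77) are dim, and brighter probe sets of the same genes lie between -0.11 and 0.13.

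The split decides what a choice of probe set shows for the helicase genes. With x_at and s_at probe sets set aside, an alternative chosen after seeing the data, 37 members could be tested and 3 were called lower in limma, Mcm7, Rrm2 and Kif11. Over all 11064 genes tested in this way 183 were called lower and 264 higher. Mcm7 then went from 0.13 to -0.77, Mcm4 from 0.17 to -0.01, Mcm5 from 0.11 to -0.19 and Mcm2 from -0.01 to -0.14. Mcm6 went the other way, from 0.01 to 0.37, with 554 and 588 in hypomorph against 477 and 393 in wildtype. Mcm3 stayed above 0, at 0.03. In this setting 7 of 10 replication genes were below 0, with a median of -0.08 in place of 0.01. Of the mitosis members 12 of 14 were below 0, with a median of -0.13.

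Further genes of mitosis and replication were set beside the members. Of 39 tested further mitosis genes 37 had a difference below 0 (94.9%, beside 55.2% of all genes tested), and the median was -0.15. Limma called 2 lower (5.13%, beside 1.70% of all genes) and 0 higher. At an unadjusted p under 0.05 in limma there were 11 lower and 0 higher (28.2%, beside 21.7% of all genes). In 22 of the 39 (56.4%) the hypomorph arrays lay below the wildtype arrays, beside 30.0% of all genes. The count below 0 was 33 of 39 without hypomorph replicate 1 and 35 of 39 under quantile normalisation. With the probe sets of a gene averaged it was 30 of 36. Anln, the actin-binding scaffold of the cleavage furrow, fell from 1637 and 1638 to 1244 and 1207 (-0.41, SE 0.09, limma adjusted p = 0.0393). Smc2, a core subunit of condensin, fell from 1807 and 1856 to 1343 and 1427 (-0.40, SE 0.09, limma adjusted p = 0.0424). The Anln call was lost without each array in turn, and that of Smc2 without each array other than hypomorph replicate 2, with adjusted p in limma of 0.0556 to 0.163 and 0.119 to 0.197 where lost. The difference between the mitosis and replication lists was not tested.

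Of 25 tested further replication genes 16 had a difference below 0 (64.0%) and 0 were called in either direction by limma. At an unadjusted p under 0.05 there were 3 lower and 2 higher (20.0%, beside 21.7% of all genes). The median was -0.02, beside -0.02 over all genes tested. Cdc7, the kinase that fires replication origins, read 1381 and 1328 in hypomorph and 1823 and 1642 in wildtype (-0.35, adjusted p = 0.0775). Its activating subunit Dbf4 read 268 and 286 against 422 and 382 (-0.49, adjusted p = 0.0883). Among 15 tested genes of growth arrest and further inhibition of the cycle, 2 were called lower (13.3%, beside 1.70% of all genes) and 0 higher. At an unadjusted p under 0.05 there were 3 lower and 3 higher (40.0%, beside 21.7% of all genes), and the median was -0.07. The pocket protein gene Rb1, which restrains E2F, fell from 1325 and 1608 to 851 and 1089 (-0.58, SE 0.14, adjusted p = 0.0489 in limma). Trp53inp1, a p53-induced gene, fell from 3995 and 3841 to 3184 and 3108 (-0.31, SE 0.07, adjusted p = 0.0378 in limma). With no brightness filter both calls were lost (limma adjusted p = 0.172 and 0.116), as they were without the intensity trend (0.154 and 0.194). That of Rb1 was also lost with a pseudocount of 1 (limma adjusted p = 0.0525). The Rb1 call was lost under quantile normalisation (0.0595), under median centring (0.0526), and when hypomorph replicate 1 (0.153) or wildtype replicate 2 (0.206) was left out. Trp53inp1 lost its call when either wildtype replicate was left out (0.224 and 0.128).

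**Figure D4:**
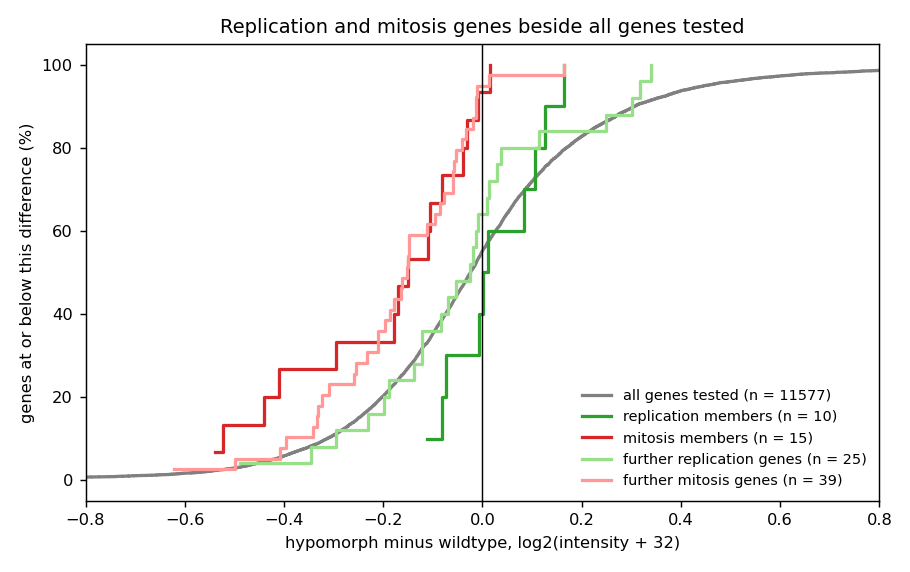
Cumulative share of genes (%) at or below each difference between hypomorph and wildtype on the log2(intensity + 32) scale, for the 10 replication members, the 15 mitosis members, the further replication and mitosis genes, and all 11577 genes tested. The mitosis curves lie to the left, with medians of -0.15 in both lists, and the replication curves lie near that of all genes, with medians of 0.01 and -0.02.

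Markers of cell types that the captured tissue could hold moved between the groups as well. Of 9 tested crypt stem cell markers 8 were below 0 and 2 were called lower, Msi1 and Cd44, and their summed intensity was 15459 to 15469 in hypomorph and 17248 to 17511 in wildtype. Of the 9 Paneth cell markers listed, 6 had a probe set with their symbol alone. Lyz1 read 14561 and 15097 in hypomorph and 15481 and 16021 in wildtype, and Sox9 read 57.5 and 68.1 against 80.7 and 83.5. All 6 were below 0, with a median of -0.10, beside -0.02 over all genes tested. Of these 6, 0 were called in limma and 2 had an unadjusted p under 0.05, and the 6 summed to 45306 to 48578 against 49561 to 50783. Of 8 enterocyte markers 5 were called higher, with sums of 25722 to 26450 against 19270 to 19578 and Anpep below the brightness limit. Of 6 fat cell markers 6 were called higher, with sums of 19089 to 20117 against 7644 to 7676 and Retn below the limit. Of 7 enteroendocrine markers 3 were called lower, with sums of 9091 to 9557 against 11831 to 12660. Of 5 markers of B and plasma cells 0 were called in limma, with 1 at an unadjusted p under 0.05, and they summed to 6786 to 7346 against 6485 to 6659. T and NK cell markers, 2 of 6 called higher, summed to 4048 to 4331 against 3509 to 3590 with Cd3e and Nkg7 below the limit. Fibroblast and muscle markers, 2 of 8 called higher, summed to 25215 to 26248 against 23508 to 24169, and goblet cell markers, 0 of 7 called in limma with 4 at an unadjusted p under 0.05, summed to 37669 to 38890 against 38740 to 40631. Over all genes tested 1.70% were called lower, 2.53% were called higher, and 21.7% had an unadjusted p under 0.05. The part of the marker shifts in the cell cycle values was not tested.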

How the data were processed

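Expression was measured on 4 arrays, 2 of laser-captured Paneth cells of Atg16 hypomorph mice and 2 of wildtype, grouped by title. RNA was extracted with PicoPure, then amplified and biotin-labelled with RiboAmp Plus, per the labels' protocols. The authors deposited 1 linear intensity per probe set and array. How they were scaled, background-corrected and summarised over probes is not stated in the labels, and the values were not normalised again. Names came from the platform annotation, in which 34945 of the 45037 non-control probe sets carried 1 symbol and were named, 932 carried several, and 9160 had none.

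Intensities were tested as log2(intensity + 32), leaving out probe sets with a mean below the median of 6.32, which kept 22519. Genotype was the sole term of the model in limma 3.58.1 with R 4.3.3 (lmFit, eBayes with an intensity trend, 2 residual and 7.81 prior degrees of freedom), two-sided, with Benjamini-Hochberg adjustment over all probe sets. A permutation test of 2 against 2 arrays cannot go below p = 0.333 and was not used. Tested on simulated data for hypomorph against wildtype, where 200 of 22519 probe sets were given a change, the fit recovered 17.9% of changes of 0.5 (log2), 77.2% of changes of 1 and 100% of changes of 2, and 5 of 137 calls were false.

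The members and lists were chosen with earlier results of these data known, so no list was tested as a set. Every member could be named. Of a further list the called genes were named, or otherwise the 2 with the smallest unadjusted p, and of marker lists up to 3 called genes. Lyz1, Sox9, and markers below the brightness limit, were named after their values were seen. Sequences are from RefSeq tables (GRCm38.p6), in which 33 of 40 members had a promoter window. The 4 printed were chosen after the values were seen. Alternatives were other normalisations, pseudocounts, filters and priors, the replicate number as a block, other choices of probe set, and each array left out.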

Additional observations from a re-analysis of the deposited data

How the results depend on the processing

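The direction of the member median (-0.08) was kept under every alternative, between -0.06 and -0.12. Leaving out each array gave a median of -0.10 to -0.06, 0 to 3 member genes called lower, 2 to 8 member probe sets called lower, 0 to 3 further mitosis genes called lower, 0 to 1 further replication genes called in each direction, and 0 to 2 growth arrest genes called lower with 0 to 1 higher. Such fits take the spread of the lone array from the other group. With no brightness filter 0 member genes, 1 member probe set (Bub1b), 1 further replication gene, 0 further mitosis genes and 0 growth arrest genes were called lower, and without the intensity trend 0, 2, 0, 0 and 0. The filter at the 75th percentile left 2 member probe sets lower and, like the robust prior, 1 growth arrest gene higher. Quantile normalisation, median centring and a pseudocount of 1 each left 1 growth arrest gene lower. Averaging the probe sets of each gene gave a member median of -0.117, 2 member genes lower (Rrm2 and Bub1b), 1 further mitosis gene lower, and 1 growth arrest gene higher with 0 lower. Over all 9097 genes tested in this way 174 were called lower and 261 higher. Without x_at and s_at probe sets, added after seeing the data, 3 member genes were called lower, beside 183 of all 11064 genes. Mcm7 then turned to -0.77 and Mcm6 rose to 0.37.

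Arrays of the same replicate number deviated from their group means together across the groups (r = 0.26 over probe sets), but nothing in the labels ties the numbers to animals or batches. With the replicate number as a block, 5 member genes were called lower and 3 higher, with 12 and 5 member probe sets, 3 and 1 further replication genes, 5 further mitosis genes lower, and 3 growth arrest genes lower and 3 higher, beside 884 and 853 of all genes. The called members were Ccnd2, Aurka, Bub1, Kif11 and Kif20a, lower, and Ccnd3, Cdkn1a and Cdkn1b, higher.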

Other observations

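The mean log2(intensity + 32) over the tested members was 10.31 and 10.36 in hypomorph and 10.38 and 10.41 in wildtype, so the groups did not overlap by this measure. Hypomorph replicate 2 lay closer to wildtype replicate 1 than to hypomorph replicate 1. For the 39 further mitosis genes the means were 10.01 and 10.10 against 10.22 and 10.24, and for the 25 further replication genes 9.95 and 9.99 against 10.00 and 10.01. The groups did not overlap in either list. Over all 11577 genes tested they were 9.12 and 9.17 against 9.16 and 9.15, with overlapping groups. The members' median difference between a hypomorph and a wildtype array ran from -0.10 to -0.04 over the 4 pairs of arrays.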
